A study of Homo sapiens with 6 samples.

Results

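The 9 genes described here build and load MHC class I molecules, the surface complexes that show peptides from inside a cell to CD8 T cells. They were taken by symbol from the merged count table of the series and are HLA-B, HLA-C, HLA-E, B2M, TAP1, TAP2, TAPBP, ERAP1 and NLRC5, 9 of the 58037 gene IDs counted. The symbols stand on 45 IDs there, and 36 of them hold no counts, which leaves 1 ID per gene. All 9 passed the filter on low counts. They were measured in OVCAR8, an established line of human ovarian carcinoma cells, by sequencing of total RNA. Cells kept in serum-free medium for 16 hours were then given recombinant human relaxin-2 (RLN2), a peptide hormone of the insulin superfamily, at 50 ng/mL for 8 hours (3 libraries, numbered 1 to 3). Other cells were starved in the same way and left untreated (3 libraries, numbered 2 to 4). The labels speak of triplicates without naming separate cultures, so each p-value reflects only how these libraries vary, possibly for technical reasons.

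A class I molecule is a polymorphic heavy chain, such as HLA-B or HLA-C, paired with the small invariant chain beta-2 microglobulin, the product of B2M. Peptides made by the proteasome in the cytosol are pumped into the endoplasmic reticulum by the TAP1/TAP2 transporter, trimmed by the aminopeptidase ERAP1 and fitted to the heavy chain with the help of tapasin (TAPBP). HLA-E is a less polymorphic heavy chain that mainly shows leader peptides of other class I chains to receptors of natural killer cells. The class I genes are known as interferon-inducible, and NLRC5, which acts with the RFX and NF-Y factors at their promoters, is their main transactivator. Many tumours lower these genes, which hides the cells from T cells.

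Interferon and NLRC5 act on class I genes through short promoter elements. The promoters of 2 heavy chains (HLA-B and HLA-C), of the light chain B2M and of TAPBP are therefore shown. They are the 250 bases before the RefSeq start of the gene (GRCh38.p14), 5′ to 3′ on the gene's own strand. The HLA-B stretch is chr6:31357180-31357429 and the HLA-C stretch chr6:31272093-31272342, both on the minus strand. That of TAPBP is chr6:33314079-33314328 on the minus strand and that of B2M chr15:44711267-44711516 on the plus strand. Capitals mark letters that match GAAANNGAA or GAANNGAAA, both of them forms of the interferon-stimulated response element, on either strand.
HLA-B: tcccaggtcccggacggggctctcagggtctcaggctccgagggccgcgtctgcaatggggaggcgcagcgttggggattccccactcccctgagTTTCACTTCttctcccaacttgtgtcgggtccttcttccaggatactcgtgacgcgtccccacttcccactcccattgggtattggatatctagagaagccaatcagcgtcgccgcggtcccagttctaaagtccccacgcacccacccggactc
HLA-C: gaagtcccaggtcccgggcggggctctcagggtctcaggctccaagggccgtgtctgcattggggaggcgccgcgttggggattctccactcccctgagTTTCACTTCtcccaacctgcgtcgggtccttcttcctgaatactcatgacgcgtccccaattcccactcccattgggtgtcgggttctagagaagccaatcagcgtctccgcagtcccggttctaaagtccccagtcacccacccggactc
B2M: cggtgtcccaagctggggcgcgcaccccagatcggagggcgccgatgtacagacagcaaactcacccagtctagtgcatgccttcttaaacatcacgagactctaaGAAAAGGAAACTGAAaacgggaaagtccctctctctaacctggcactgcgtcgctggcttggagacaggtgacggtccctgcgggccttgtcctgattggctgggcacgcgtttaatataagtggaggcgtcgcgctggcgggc
TAPBP: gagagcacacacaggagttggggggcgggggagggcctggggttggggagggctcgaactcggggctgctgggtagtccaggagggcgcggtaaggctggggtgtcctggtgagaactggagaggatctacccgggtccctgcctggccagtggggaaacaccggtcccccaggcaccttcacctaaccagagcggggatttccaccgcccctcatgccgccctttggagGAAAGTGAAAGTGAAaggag

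The HLA-B and HLA-C stretches held the same 9 letters, TTTCACTTC, beginning 155 and 151 bases before the start. In B2M the marked run began 144 bases before the start and in TAPBP 20 bases before it. RefSeq windows were found for 7 of the 9 genes, with 9 windows in all. GAAANNGAA was found for B2M, TAP1, TAP2 and TAPBP, and in 6.88% of 35116 promoter windows of this length. GAANNGAAA was found for HLA-B, HLA-C, ERAP1 and TAP2, in TAP2 overlapping the other form, and in 6.56% of all windows. ERAP1 and TAP1 had an additional window each, and a match in either counted for the gene, while the shares are per window. The ERAP1 match lay in chr5:96814146-96814395, and the window chr5:96807946-96808195 held no match to this form. The NF-Y box CCAAT was in windows of 5 of the 7 genes (B2M, ERAP1, HLA-B, HLA-C and TAP1) and in 32.0% of all windows. TGACGC, part of the X2 box, was in windows of HLA-B, HLA-C and TAP2 and in 7.67% of all windows. The TAPBP window held neither. These are letter matches on both strands, and binding was not measured.

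Reads assigned to genes ran from 11939148 to 21926212 in the RLN2 libraries and from 17175308 to 22426768 in the untreated libraries. RLN2 replicate 2 and untreated replicate 2 stood apart from the other 4 libraries. In RLN2 replicate 2, 27.0% of reads mapped to several places, against 5.31% to 6.19% in the other libraries. Reads outside annotated exons made up 17.5% to 25.8% of the RLN2 libraries and 27.9% to 32.0% of the untreated libraries, ranges that do not overlap (two-sided exact permutation test, p = 0.1, the smallest that 3 against 3 allows). The epithelial keratins KRT8 and KRT18 were abundant, with 974 and 1308 CPM (reads per 1000000 gene reads, scaled between libraries) on average in RLN2 libraries and 705 and 1165 CPM in untreated libraries. PAX8 and EPCAM were also present, while KRT19 and MUC16 had 4 reads each over all libraries. Sums of markers are given in CPM without the scaling between libraries. The 6 epithelial markers summed to 2111 to 2557 CPM in RLN2 libraries and 1365 to 2315 CPM in untreated libraries, and their part in the differences below was not tested. The 8 leukocyte markers summed to 1.05 to 1.34 CPM in RLN2 libraries and 0.902 to 1.46 CPM in untreated libraries, with CD3E and NKG7 at 0 reads.

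The comparison asked whether 8 hours of RLN2 changes the class I machinery of these cells. None of the 9 genes passed the threshold (edgeR quasi-likelihood test, Benjamini-Hochberg adjusted p under 0.05 over 16740 tested genes; smallest adjusted p among the 9 was 0.408). Over all tested genes the share called was 0% as well. Log2 fold changes, RLN2 over untreated, were above 0 for 6 of the 9 genes and below 0 for 3, where 47.8% of all tested genes were above 0, and the median was 0.14 beside -0.01 over all tested genes. At an unadjusted p under 0.05 there were 2 genes, HLA-C and TAPBP, both higher, where 10.8% of all tested genes reached that mark (6.3% higher and 4.52% lower). The groups did not overlap in 2 genes, HLA-C and HLA-E, both higher. Over all tested genes 21.4% had groups that did not overlap (10.8% higher and 10.5% lower), so this count lies near the background. Counts of bulk RNA cannot tell fewer cells with a transcript from less of it per cell.

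**Figure D1:**
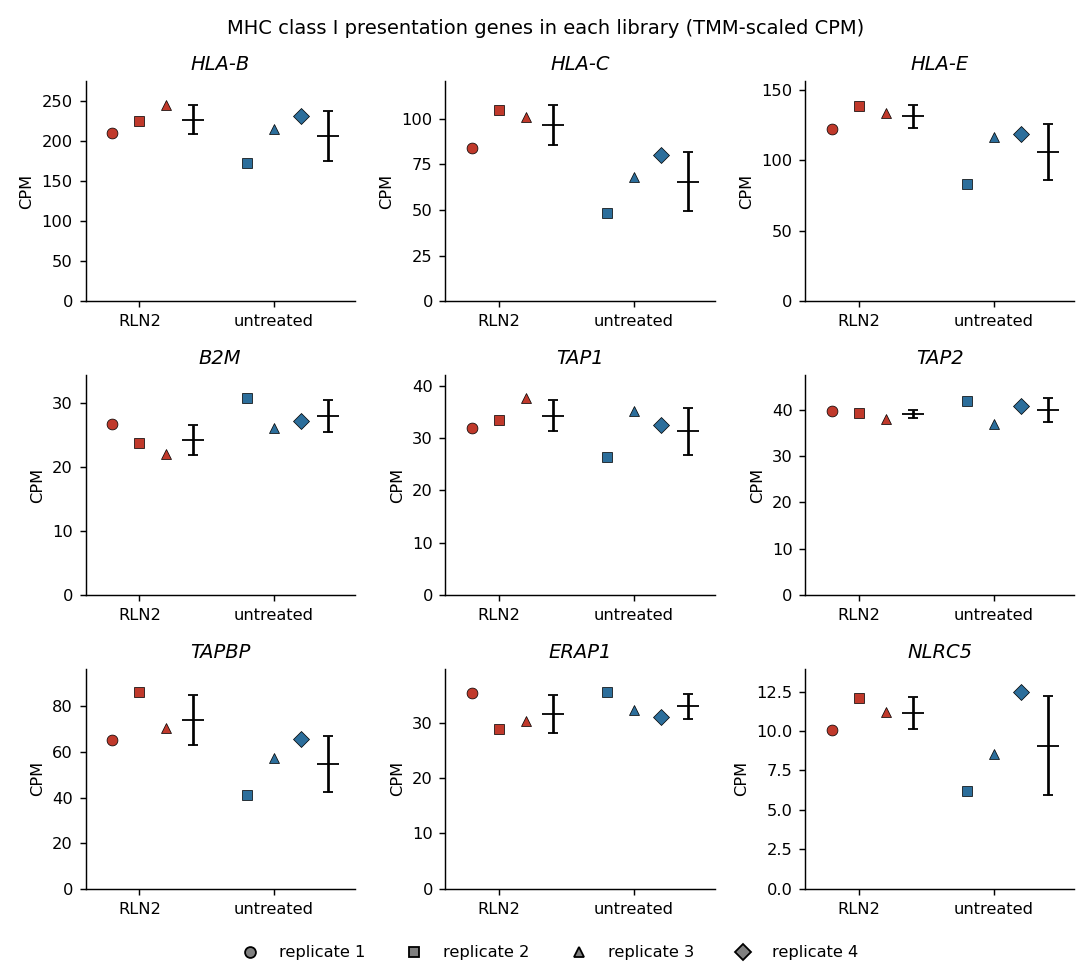
Level of each of the 9 genes in CPM scaled by trimmed mean of M values (TMM), by library, with RLN2 libraries (red) left of untreated libraries (blue). Symbols give the replicate number, black bars the mean ± SD of 3 libraries, and every axis starts at 0. Untreated replicate 2 was the lowest library in 6 panels and the highest in the other 3.

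Among the heavy chains, HLA-C (chromosome 6, 31268749 to 31272130, GRCh38) showed the largest difference of the 9 genes. It had 84.0, 105 and 101 CPM in RLN2 replicates 1, 2 and 3, against 48.1, 67.9 and 80.3 CPM in untreated replicates 2, 3 and 4. Every RLN2 library was above every untreated library, though RLN2 replicate 1 and untreated replicate 4 were close. Means were 96.6 ± 11.1 CPM with RLN2 and 65.4 ± 16.2 CPM untreated (SD, n = 3 each). The log2 fold change was 0.56 ± 0.18 (SE), with a 95% interval from 0.15 to 0.97 and an edgeR adjusted p of 0.408. Leaving out untreated replicate 2 gave 0.38, leaving out untreated replicate 4 gave 0.74, and leaving out the pair of libraries numbered 2 gave 0.33. Offsets that take out each library's trend on GC content and length of the transcripts, called composition offsets here, gave 0.07. With no filter on low counts HLA-C passed edgeR's test (adjusted p = 0.0410), where 120 of 32407 tested genes passed, 115 of them higher.

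HLA-E (chromosome 6, 30489467 to 30494205) had 122, 138 and 133 CPM in the RLN2 libraries and 83.1, 116 and 118 CPM in the untreated libraries. Its groups did not overlap, with untreated replicates 3 and 4 just under RLN2 replicate 1. The log2 fold change was 0.31 ± 0.13 (SE; 95% interval -0.0011 to 0.62; edgeR adjusted p = 0.408). Leaving out untreated replicate 2 gave 0.16 and untreated replicate 4 gave 0.40, and the composition offsets gave -0.19. HLA-B (chromosome 6, 31269491 to 31357188) was the most abundant of the 9 genes, with 210.0, 225 and 246 CPM in RLN2 libraries against 172, 216 and 232 CPM in untreated libraries. The groups overlapped, and apart from untreated replicate 2 all libraries lay between 210.0 and 246 CPM. Its log2 fold change of 0.14 ± 0.12 (SE; 95% interval -0.13 to 0.40; edgeR adjusted p = 0.521) shrank to 0.02 once untreated replicate 2 was left out and grew to 0.23 once untreated replicate 4 was. The composition offsets gave -0.28 and the block on replicate number 0.29.

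Heavy chains resemble each other, which bears on how their reads were counted. Of the 50-base windows of their coding transcripts in GENCODE release 29, 2.12% in HLA-B, 6.17% in HLA-C and 5.76% in HLA-E also occurred in transcripts of a gene elsewhere. This was not particular to heavy chains, since TAPBP had 5.82%. TAP1 had 1.05%, TAP2 0.50%, ERAP1 0.05%, and B2M and NLRC5 0%. Reads with several equal matches were set aside in counting, so levels of the heavy chains and TAPBP are uncertain to that extent. The alleles of OVCAR8 may also differ from the reference sequence, and the loss of reads this can cause was not tested.

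B2M (chromosome 15, 44711487 to 44718877) lay on the other side of 0. It had 26.7, 23.7 and 22.0 CPM in RLN2 libraries and 30.7, 26.0 and 27.2 CPM in untreated libraries. RLN2 replicate 1 was above untreated replicate 3, so the groups overlapped. Means were 24.2 ± 2.37 CPM with RLN2 and 27.9 ± 2.43 CPM untreated (SD, n = 3 each), and the log2 fold change was -0.21 ± 0.12 (SE; 95% interval -0.48 to 0.06; edgeR adjusted p = 0.412). Leaving out untreated replicate 2 gave -0.14 and RLN2 replicate 1 gave -0.30, and the composition offsets gave -0.07. Heavy and light chains thus had differences of opposite sign in the fit without offsets, where the intervals of HLA-B, HLA-E and B2M include 0. Under the composition offsets HLA-B (-0.28) and HLA-E (-0.19) were below 0 as B2M was, and HLA-C (0.07) was above 0. The summed level per kilobase of coding transcript of HLA-B, HLA-C and HLA-E was 16.9, 21.1 and 23.8 times that of B2M in RLN2 replicates 1, 2 and 3, and 11.1, 17.0 and 17.6 times in untreated replicates 2, 3 and 4. On this scale the ranges overlapped, with RLN2 replicate 1 below untreated replicates 3 and 4. The size of the ratio depended on the length used. Per kilobase of merged exons it was 32.6, 41.6 and 45.6 in RLN2 libraries and 20.5, 32.0 and 33.1 in untreated libraries, still with overlap, but with RLN2 replicate 1 above untreated replicate 3.

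Of the peptide loading genes, TAPBP (chromosome 6, 33299694 to 33314387), which holds the empty class I molecule at the transporter, differed most. It had 65.0, 86.1 and 70.5 CPM in RLN2 libraries against 41.2, 57.2 and 65.4 CPM in untreated libraries. RLN2 replicate 1 and untreated replicate 4 overlapped by less than 1 CPM. The log2 fold change was 0.43 ± 0.17 (SE; 95% interval 0.03 to 0.84; edgeR adjusted p = 0.408), and it dropped to 0.26 when untreated replicate 2 was left out and 0.16 when the pair numbered 2 was, and came to 0.58 when untreated replicate 4 was. The composition offsets gave -0.09. TAP1 (chromosome 6, 32845209 to 32853978), the first subunit of the transporter, had 31.8, 33.5 and 37.5 CPM in RLN2 libraries and 26.3, 35.1 and 32.5 CPM in untreated libraries, with overlap. Its log2 fold change was 0.13 ± 0.13 (SE; edgeR adjusted p = 0.573). Leaving out untreated replicate 2 gave 0.02 and untreated replicate 3 gave 0.22, and the composition offsets gave -0.04.

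TAP2 (chromosome 6, 32821833 to 32838780), the partner subunit, was the steadiest of the 9 genes. It had 39.7, 39.4 and 38.0 CPM in RLN2 libraries and 41.8, 36.9 and 40.9 CPM in untreated libraries, so the RLN2 values lay within the untreated range. Its log2 fold change of -0.03 ± 0.09 (SE; edgeR adjusted p = 0.851) has a 95% interval from -0.23 to 0.17. The composition offsets gave -0.19, and leaving out untreated replicate 2 gave 0.0046. An annotated gene without a common name, AL669918.1, lies on the same strand across 32.3% of the merged TAP2 exons and had 0 reads in every library. Reads that fall in exons of both genes are set aside as ambiguous, so TAP2 may be undercounted in both groups.

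ERAP1 (chromosome 5, 96760810 to 96808100), the trimming enzyme, had 35.4, 28.8 and 30.2 CPM in RLN2 libraries and 35.5, 32.3 and 31.1 CPM in untreated libraries. The RLN2 values spanned the untreated ones almost fully. The log2 fold change was -0.06 ± 0.11 (SE; 95% interval -0.32 to 0.19; edgeR adjusted p = 0.755), and 0.04 under the composition offsets. Leaving out 1 library each gave -0.16 to -0.0052. NLRC5 (chromosome 16, 56989485 to 57083531), the transactivator, was scarce, with 139 to 247 reads in RLN2 libraries and 138 to 216 reads in untreated libraries. It had 10.1, 12.1 and 11.2 CPM with RLN2 and 6.21, 8.56 and 12.5 CPM untreated, and the untreated values spread on both sides of the RLN2 values. The log2 fold change of 0.30 ± 0.24 (SE; 95% interval -0.26 to 0.85; edgeR adjusted p = 0.504) came to 0.09 when untreated replicate 2 was left out and 0.04 under the composition offsets. It came to 0.59 ± 0.19 (SE; edgeR adjusted p = 0.236) when untreated replicate 4 was left out, and 0.67 ± 0.27 (SE; edgeR adjusted p = 0.268) with a block on replicate number. The sign was the same throughout, while the size moved with the untreated library left out, with the block and with the composition offsets.

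**Figure D2:**
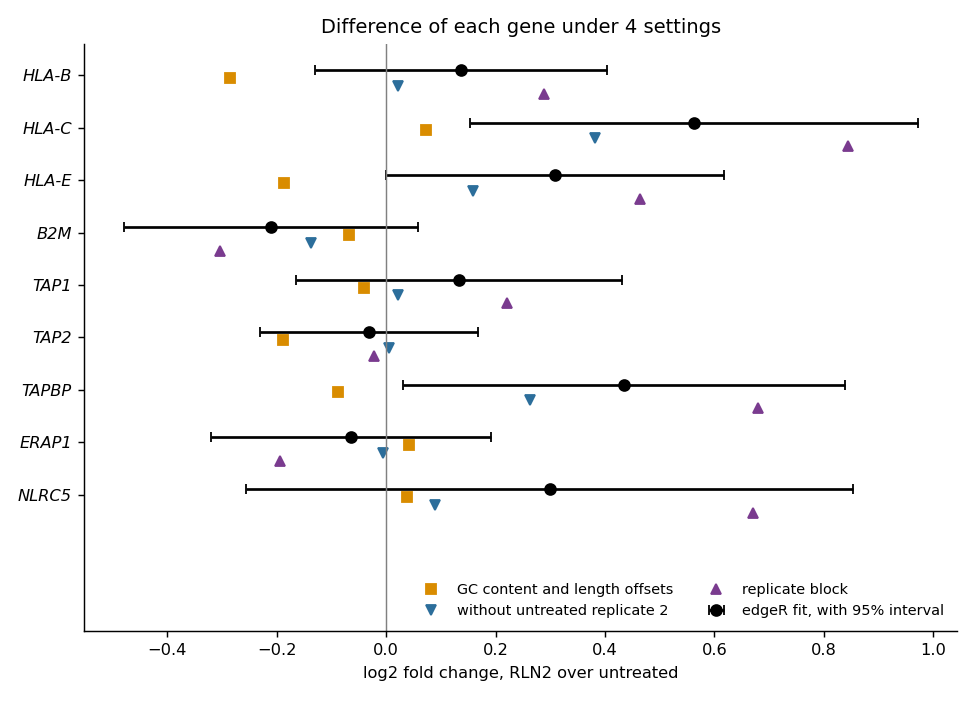
Log2 fold change, RLN2 over untreated, of each gene in the edgeR fit (black, with 95% interval) and under 3 other settings. HLA-C and TAPBP have intervals above 0 before adjustment. Under the composition offsets (orange squares) HLA-B, HLA-E, TAP1 and TAPBP move below 0, where B2M and TAP2 also lie.

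Untreated replicate 2 was the extreme library for all 9 genes. It was the lowest of the 6 libraries for HLA-B, HLA-C, HLA-E, TAP1, TAPBP and NLRC5, and the highest for B2M, TAP2 and ERAP1. The mean deviation of the 9 genes from their own average over the libraries, in log2 CPM, was -0.29 in that library. It was 0.04, 0.14 and 0.10 in RLN2 replicates 1, 2 and 3, and -0.06 and 0.07 in untreated replicates 3 and 4. Untreated replicate 4 was thus above RLN2 replicate 1.

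The fitted differences ran in parallel with the base composition of the transcripts. Mean transcript GC content was 62.1% for TAPBP, 61.6% for HLA-C, 61.5% for HLA-E, 59.7% for HLA-B, 56.9% for NLRC5 and 54.6% for TAP1, all 6 with a log2 fold change above 0. It was 53.6% for TAP2, 45.6% for ERAP1 and 41.2% for B2M, all 3 below 0. Tested genes at large showed the same gradient. In the decile of genes richest in GC the median log2 fold change was 0.56 and 96.0% of genes were above 0. In the decile poorest in GC the median was -0.18 and 10.4% of genes were above 0. HLA-C, at 0.56, lay at the median of its own decile, and B2M, at -0.21, lay beside the -0.15 of its decile. HLA-E and HLA-B lay below the lower quartile of their deciles, 0.38 and 0.24, and TAP2 lay below its lower quartile of -0.02. The other 6 genes were within the quartiles of genes of like GC content. Under the composition offsets 3 of the 9 genes were above 0 and 6 below, with a median of -0.07. HLA-B then had the smallest unadjusted p of the 9, at a log2 fold change of -0.28 ± 0.09 (SE; edgeR adjusted p = 0.447).

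**Figure D3:**
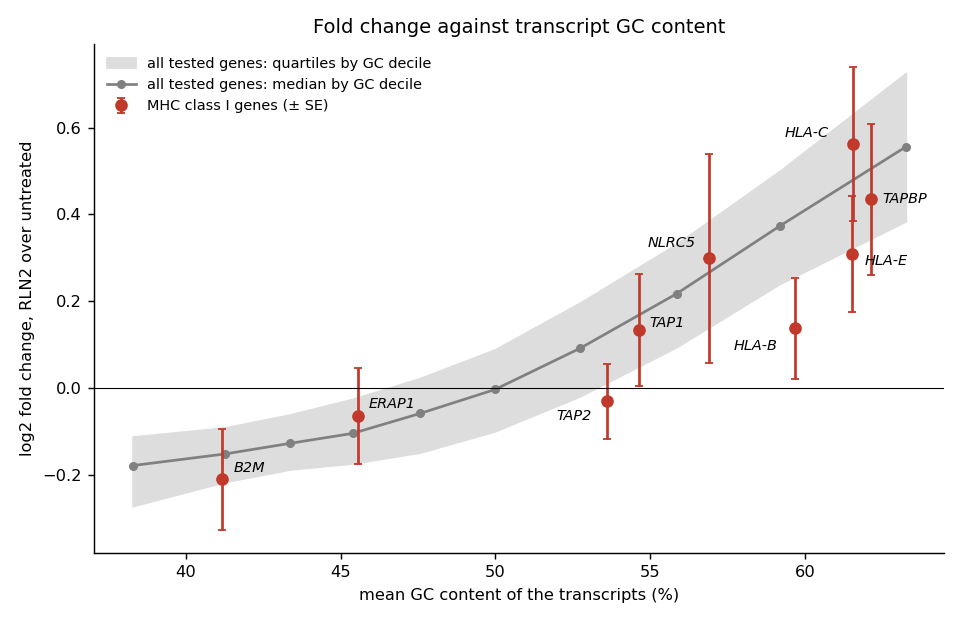
Log2 fold change of the 9 genes (red, ± SE) against the mean GC content of their transcripts, over the median (grey line) and quartiles (band) of all tested genes in deciles of GC content. The 6 genes richest in GC lie above 0 and the 3 others below, and 6 of the 9 lie within the quartiles of their decile.

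Levels were compared between genes per kilobase of mean coding transcript length. HLA-B led, with 292 ± 23.0 CPM per kb with RLN2 and 266 ± 39.6 CPM per kb untreated (SD, n = 3 each), above 98.1% of 12932 coding genes ranked. HLA-C followed with 79.7 ± 9.12 and HLA-E with 50.4 ± 3.16 CPM per kb in RLN2 libraries, against 54.0 ± 13.4 for HLA-C and 40.7 ± 7.60 CPM per kb for HLA-E in untreated libraries. The ranges of this pair overlapped in untreated libraries and did not in RLN2 libraries, but within every library HLA-C was above HLA-E on this scale. TAPBP had 43.5 ± 6.43 CPM per kb with RLN2 and 32.1 ± 7.24 CPM per kb untreated. Its range overlapped that of HLA-E in both groups, though within every library it was below HLA-E. In untreated libraries its range also met that of B2M, which was above TAPBP in untreated replicate 2 only.

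B2M was in the middle of the order rather than at its top. Its level was 20.7 ± 2.03 CPM per kb with RLN2 and 24.0 ± 2.09 CPM per kb untreated, above 64.9% of coding genes. On this scale HLA-B stood 14.1 times higher with RLN2 and 11.1 times higher untreated. These ratios, and the ranks, depend on the annotated mean coding lengths, 0.777 kb for HLA-B (5 transcripts) and 1.17 kb for B2M (4 transcripts). Before division by length, HLA-B had 227 CPM with RLN2 and 206 CPM untreated, and B2M 24.2 and 27.9 CPM. TAP1, at 16.0 ± 1.38 and 14.6 ± 2.12 CPM per kb with RLN2 and untreated, and ERAP1, at 15.0 ± 1.64 and 15.7 ± 1.08 CPM per kb, did not differ beyond their spread. TAP2 had 8.45 ± 0.19 CPM per kb with RLN2 and 8.63 ± 0.56 CPM per kb untreated, and NLRC5 closed the order at 3.39 ± 0.31 CPM per kb with RLN2 and 2.76 ± 0.96 CPM per kb untreated. Per kilobase of merged exons, which counts rare long forms too, HLA-B was still first and NLRC5 last, HLA-E passed HLA-C, and B2M was the seventh of the 9 at 3.97 CPM per kb with RLN2 and 4.59 CPM per kb untreated.

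**Figure D4:**
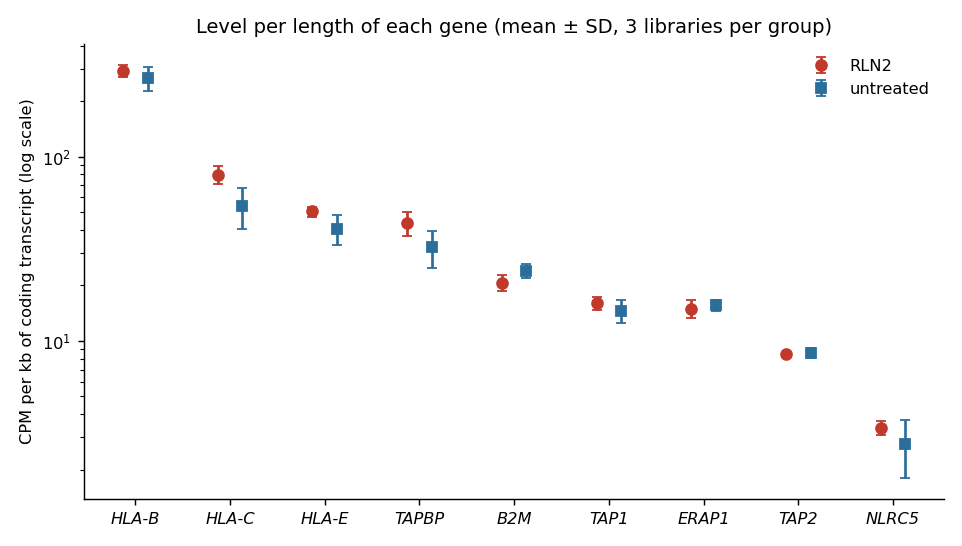
Level of each gene in CPM per kb of mean coding transcript length on a log axis, mean ± SD of 3 libraries, RLN2 (red) left of untreated (blue). HLA-B is highest at 292 CPM per kb with RLN2 and NLRC5 lowest at 3.39 CPM per kb.

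Other genes of the pathway gave the same picture, with 0 genes past the adjusted threshold in any list. Of 12 further class I and class I-like chains, 9 were tested, and all 9 had log2 fold changes above 0 (median 0.10). The nonclassical chain HLA-F had 10.1 ± 1.33 CPM with RLN2 and 6.79 ± 2.13 CPM untreated, a log2 fold change of 0.57 ± 0.24 (SE), against 0.28 under the composition offsets and 0.34 with untreated replicate 2 left out. FCGRT, the heavy chain of the neonatal Fc receptor, had 0.48 ± 0.22, against -0.03 under the composition offsets. HLA-G, the trophoblast chain, had 15 reads over all libraries and was not tested. Under the offsets 6 of these 9 genes were above 0 and 3 below.

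Endoplasmic reticulum helpers were split, 4 above 0 and 5 below among 9 (median -0.02). The chaperone calreticulin (CALR), part of the loading complex, had 1028 ± 25.3 CPM with RLN2 and 872 ± 110 CPM untreated (log2 fold change 0.24 ± 0.10, SE), and GANAB, a glucosidase that trims the glycans calreticulin reads, had 0.20 ± 0.08. Under the offsets these were 0.0019 and 0.02, and 7 of the 9 helpers were above 0 and 2 below. Of 10 proteasome genes 9 were above 0 (median 0.13). PSMB9, an interferon-induced catalytic subunit encoded beside TAP1, had 3.17, 3.31 and 3.36 CPM in RLN2 libraries against 1.80, 2.19 and 2.71 CPM in untreated libraries, with no overlap. Its log2 fold change was 0.56 ± 0.19 (SE; edgeR adjusted p = 0.408), 0.45 under the offsets and 0.43 with untreated replicate 2 left out. PSMB8, the neighbouring immunoproteasome subunit, had 0.25 ± 0.13 and the constitutive PSMB5 0.20 ± 0.08, and under the offsets they had 0.14 and 0.09. Cytosolic peptidases had 1 gene above 0 and 5 below (median -0.10), THOP1 at 0.63 ± 0.27 (0.03 under the offsets) and TPP2 at -0.15 ± 0.08 (0.02 under the offsets). The offsets gave 4 peptidases above 0 and 2 below (median 0.02), and 8 proteasome genes above 0 and 2 below.

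Regulators of class I transcription had 8 genes above 0 and 7 below among 15 tested (median 0.04). RFX5, the DNA-binding partner of NLRC5, had 70.6 and 71.2 CPM on average with RLN2 and untreated (log2 fold change -0.01 ± 0.07, SE). The smallest p in this list were those of NFYC, an NF-Y subunit, at 0.33 ± 0.14, and RELA, an NF-kB subunit, at 0.42 ± 0.19, which under the offsets were 0.24 and -0.06. CIITA, the class II counterpart of NLRC5, had 8 reads over all libraries. Interferon receptors and kinases had 4 above 0 and 4 below (median -0.01), with the feedback inhibitor SOCS3 at 0.38 ± 0.20 (-0.41 under the offsets) and the kinase TYK2 at 0.44 ± 0.25 (0.05 under the offsets). The interferon genes IFNG, IFNB1 and IFNL1 had 1, 2 and 0 reads over all libraries, and 0 reads allow up to 0.0264 CPM by the floor of 3 counts over 113628275 gene reads, which covers counting error only. Of 17 interferon-stimulated genes 15 were tested, 9 above 0 and 6 below (median 0.12), with PSMB9 given above and IFIT2, an RNA-binding antiviral protein, at -0.32 ± 0.15 (-0.20 under the offsets). Genes of class I turnover had 8 above 0 and 2 below (median 0.17), with TMEM127, part of a membrane complex that lowers surface class I, at 0.32 ± 0.11 and the ubiquitin ligase MARCHF4 at 0.35 ± 0.17, which under the offsets were 0.09 and -0.00064. With the offsets 7 regulators were above 0 and 8 below, and 3 receptors and kinases above and 5 below. Interferon-stimulated genes then had 9 above and 6 below, and turnover genes 6 above and 4 below.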

How the data were processed

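The 3 RLN2 and 3 untreated libraries of OVCAR8 total RNA were made with a stranded kit, per the labels' protocols. The authors deposited raw gene counts, with a file for each library that gives 1 column unstranded and 1 for each strand, and a merged count table. The submitters' processing notes name STAR and hg38, while the sources used here give neither the version of STAR nor the annotation. The reverse column, with 17.8 to 19.8 times as many gene reads as the forward one, was used, and it equalled the merged table in all 24635 shared gene IDs. Reads set aside as unmapped (6.73% to 17.4%), multimapping (5.31% to 27.0%), ambiguous (2.36% to 4.18%) or outside features (17.5% to 32.0%) stayed out of library sizes and tests.

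From these counts, genes were filtered (filterByExpr), given TMM factors and tested with edgeR 4.0.16 (quasi-likelihood F test, R 4.3.3, two-sided), with treatment as the only term and all 6 libraries in 1 fit. Library measures were compared by exact permutation over 20 assignments. Alternatives were DESeq2 1.42.0, other scalings, no filter, unstranded counts, the merged table, leaving out libraries, a replicate block and offsets from natural splines with 4 degrees of freedom on transcript GC content and log length. Annotation was GENCODE release 29 on GRCh38, and promoters were from RefSeq. From each list the text names 2 tested genes, those with the smallest p above an average log2 CPM of 1, and a few fixed genes. The members and lists were chosen with earlier results of these data known, and the motifs, the GC deciles and the scale per coding transcript after the values or sequences had been seen. No 2 libraries agreed within sampling noise. The fit was tested on simulated data.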

Additional observations from a re-analysis of the deposited data

How the results depend on the processing

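Over 15 alternatives none of the 9 genes passed edgeR's or DESeq2's test except HLA-C with no filter on low counts (edgeR adjusted p = 0.0410, log2 fold change 0.56). In that setting 120 of 32407 tested genes passed, 115 of them higher, and 1 of the 9. The adjusted p of HLA-C in edgeR or DESeq2 ran from 0.0410 to 0.776 over the alternatives. DESeq2 called 0 genes, with 1744 at an unadjusted p under 0.05, where edgeR had 1811. Over all genes 1 was called with the replicate block, 3 without untreated replicate 2 and 3 without both libraries numbered 2; leaving out 1 library each gave 0 to 3 genes, and 0 of the 9. Under the offsets for GC content and length the direction turned for HLA-B (-0.28), HLA-E (-0.19), TAP1 (-0.040), TAPBP (-0.089) and ERAP1 (0.042), and the median of the 9 was -0.07. Without untreated replicate 2 TAP2 was 0.0046, and without both libraries numbered 2 TAP2 was 0.0068 and ERAP1 0.056. Leaving out 1 library each gave TAP2 values from -0.085 to 0.0046. B2M, HLA-C and NLRC5 kept their direction under all 15, B2M between -0.30 and -0.07, HLA-C between 0.07 and 0.84 and NLRC5 between 0.04 and 0.67. The replicate numbers 2 and 3 are shared by the groups, but no label says that a number marks a shared culture or day, so the numbers were not taken as pairs. Deviations from the group means correlated at -0.53 between the libraries numbered 2 and 0.28 between those numbered 3. Over all pairs of an RLN2 and an untreated library they ran from -0.68 to 0.71, highest for RLN2 replicate 1 with untreated replicate 2. These correlations cannot show whether libraries were paired. With the replicate block the median of the 9 was 0.29 and 0 of the 9 passed. The causes of these shifts were not tested. NLRC5 had the fewest reads of the 9, 138 to 247 per library.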

Other observations

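MHC class II genes, which normally mark professional antigen-presenting cells, were unevenly present. HLA-DRB1 had 16.1, 14.7 and 15.0 CPM in RLN2 libraries against 10.2, 12.1 and 13.7 CPM in untreated libraries, without overlap (log2 fold change 0.35 ± 0.14, SE; edgeR adjusted p = 0.408), and 0.17 under the composition offsets (for GC content and length). HLA-DPA1 had 0.37 ± 0.18 (SE), and 0.40 under them. Over all libraries HLA-DRB1 held 1527 reads and HLA-DQB1 2243, while HLA-DRA, the partner chain of HLA-DRB1, held 24, the invariant chain CD74 51 and HLA-DQA1 0. Untreated replicate 4 alone held 20 of the HLA-DRA reads and 28 of the CD74 reads. HLA-DRB1 has close paralogs, so its counts are uncertain. Of the 6 tested class II genes 5 were above 0 and 1 below, and 0 passed. Among 5 tested checkpoint ligands 2 were above 0 and 3 below, with NECTIN2, a ligand of TIGIT, at 0.46 ± 0.21 (0.01 under the offsets) and CD47, which restrains phagocytosis, at -0.18 ± 0.09 (-0.0092 under the offsets). With the offsets 1 checkpoint ligand was above 0 and 4 below.

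The mean profile of the 9 genes over the libraries, lowest in untreated replicate 2 (-0.29), was shared widely. The genes whose log2 CPM over the 6 libraries lay closest to the mean of the 9 were KDM2A, SIGIRR, EMD, CHCHD10 and H2AC6, with Pearson r above 0.999 for each, given as a description. Of 12617 genes compared, 3237 had an r above 0.9. Within the 9 genes HLA-C and TAPBP were the closest pair (r = 0.973) and B2M and TAP1 the most opposed (r = -0.898). B2M, TAP2 and ERAP1 each had a negative r with HLA-B, HLA-C, HLA-E, TAP1, TAPBP and NLRC5, so the mean joins opposed genes. All these values share the same 6 libraries.

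In CPM without scaling between libraries, the 5 fibroblast markers summed to 26.7 to 28.3 in RLN2 libraries and 18.8 to 26.3 in untreated libraries. DCN and FAP had 0 reads. The 4 endothelial markers summed to 2.11 to 2.76 CPM and 1.71 to 2.33 CPM. Their part in the differences above was not tested.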
